A study of Mus musculus with 6 samples.

Results

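The 39 Hox cluster genes of the mouse were examined in 2 stable lines of embryonic stem cells. Members were all symbols made of Hox, a cluster letter from a to d and a paralog number, and 39 of the 23238 symbols in the count files met this rule. The cells were of strain 129/Ola and are named Niwa in the labels. The control line carried EGFP, and the other line, here EWS-OCT-4, carried EWS-OCT4A-GFP, in which part of EWS, a protein rearranged in Ewing sarcoma, is joined to the A isoform of OCT-4 and to GFP. Each line gave 3 RNA libraries. All 6 libraries came from cells in stem cell medium with LIF and doxycycline at 1 µg/ml, which lowers endogenous OCT-4 in these cells. No library was made without doxycycline, so "higher" and "lower" below compare EWS-OCT-4 with EGFP and not with untreated cells. Each line is 1 stable line, so the fusion and any other difference between the lines cannot be told apart.

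Hox genes encode homeodomain transcription factors that give cells their position along the head to tail axis of the embryo. They lie in 4 clusters, and genes of the same number in different clusters (paralogs) descend from 1 ancestral gene. In the embryo, low-numbered genes at the 3′ end of a cluster are switched on first and in the more anterior tissue, and high-numbered genes at the 5′ end later and more posteriorly. In embryonic stem cells the clusters are known as Polycomb-covered and nearly silent, and retinoic acid, WNT signals and CDX factors open them during differentiation. In the GRCm38 assembly (mm10), GENCODE places cluster A at chr6:52155590-52260880 on the minus strand, and the other clusters on the plus strand. Cluster B lies at chr11:96194316-96368256, cluster C at chr15:102921103-103036852 and cluster D at chr2:74668310-74765142. Their lengths were 105.3, 173.9, 115.8 and 96.8 kb.

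Hox transcripts were rare in both lines and more abundant in EWS-OCT-4. The 39 members together had 460, 461 and 465 counts in EGFP libraries 1, 2 and 3, and 915, 940 and 722 counts in EWS-OCT-4 libraries 1, 2 and 3. Scaled to library size by TMM and given as CPM (counts per 1000000), the sum was 32.3 ± 2.03 CPM in EGFP and 77.3 ± 14.5 CPM in EWS-OCT-4 (SD, n = 3), a ratio of 2.39. The lines did not overlap: the EGFP libraries lay between 30.2 and 34.3 CPM and the EWS-OCT-4 libraries between 60.6 and 86.8 CPM. EWS-OCT-4 library 3 was the lowest of its line. Between 19 and 23 members had a count in an EGFP library and between 25 and 29 in an EWS-OCT-4 library. Over each line as a whole, 26 members had counts in both, 6 only in EWS-OCT-4, 2 only in EGFP and 5 in neither.

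Library totals ran from 10978025 to 14935887 counts, so that 1 count stood for 0.0650 to 0.0924 CPM, and the EGFP libraries were the deeper ones. Libraries numbered 1 and 2 of a line were closer to each other (chi-square per degree of freedom 3.96 in EGFP and 4.21 in EWS-OCT-4) than either was to number 3 (23.7 to 32.3). Rn45s, a ribosomal RNA precursor, took 5.85% to 6.44% of counts in EGFP and 7.36% to 10.5% in EWS-OCT-4. The cell type markers differed between the lines along with the Hox genes. All 8 embryonic stem cell markers were higher in EWS-OCT-4 (summed level 277 to 344 CPM in EGFP and 4322 to 4861 CPM in EWS-OCT-4), and all 9 trophoblast markers were lower (4645 to 5295 and 247 to 271 CPM). Of all tested genes, 33.3% were higher and 34.1% lower. Pou5f1, which encodes OCT-4 itself, was at 0.645 ± 0.270 CPM in EGFP and 2.21 ± 0.720 CPM in EWS-OCT-4, with 5 to 13 and 18 to 36 counts per library. The other stem cell markers ran from 1.38 CPM (Esrrb) to 168 CPM (Dppa5a) in the EGFP libraries, which are labelled as stem cells, each below its own level in EWS-OCT-4. The part of cell type makeup in the Hox differences was not tested. In bulk RNA, fewer cells that express a gene and less RNA per cell cannot be told apart.

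Of the 39 members, 16 had enough counts to be tested with edgeR's quasi-likelihood test. At an adjusted p under 0.05, 9 were higher in EWS-OCT-4 (Hoxa3, Hoxa5, Hoxa7, Hoxb13, Hoxc4, Hoxc13, Hoxd4, Hoxd8 and Hoxd13), 1 was lower and 6 did not pass (Hoxa4, Hoxb4, Hoxb9, Hoxc6, Hoxc9 and Hoxc10). Called members were thus 62.5% of those tested, near the share among all 13467 tested genes, of which 67.4% passed in either direction, 33.3% higher and 34.1% lower. The libraries of the lines did not overlap for 11 of the 16 members, against 72.7% of all tested genes. The median log2 difference was 1.64 over the 16 members and -0.0042 over all tested genes. The filter on low counts can bear on this median, since 10 of the 16 members reached its limit of 0.784 CPM in all 3 EWS-OCT-4 libraries but not in all 3 EGFP libraries, and 0 did so the other way round. Without the filter the median was 1.77 over the 34 members with at least 1 count and -0.032 over all genes in that fit. The remaining 23 members were not tested, 18 of them with at least 1 count.

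**Figure D1:**
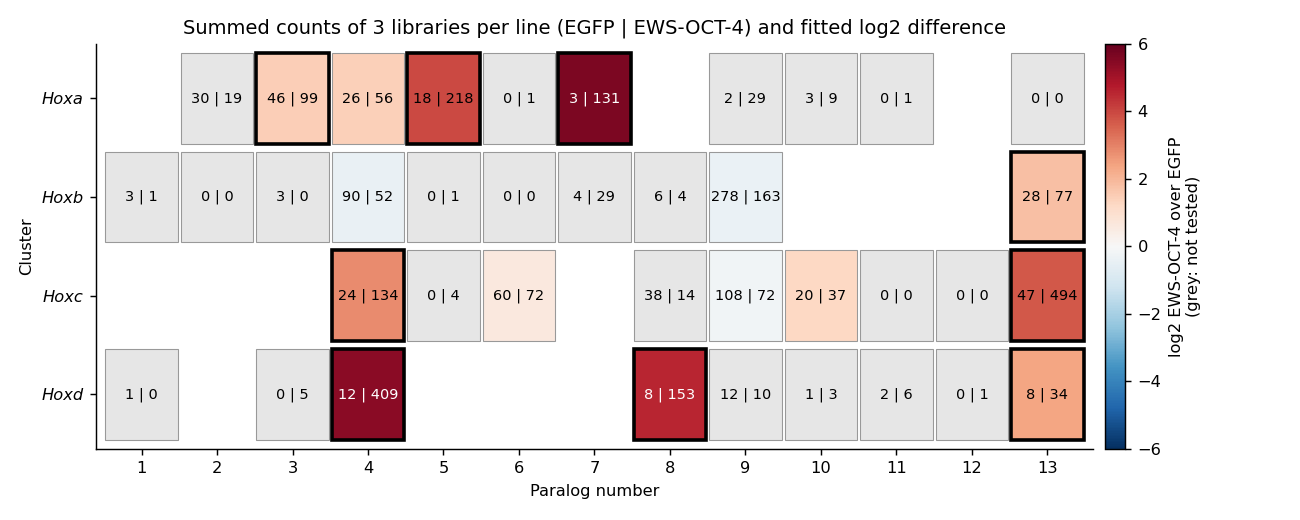
Summed counts of the 3 libraries of each line (EGFP before the bar, EWS-OCT-4 after it) for 38 Hox genes, with the cluster on the vertical axis and the paralog number on the horizontal axis. Colour gives the fitted log2 difference of tested genes, a thick outline marks an adjusted p under 0.05, and grey boxes were not tested; the 9 outlined genes are higher in EWS-OCT-4.

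The sequences just upstream of 4 members are shown because these genes mark the span of responses, from the steepest rises with a window free of annotated exons (Hoxa5, Hoxd4 and Hoxd8) to Hoxb4, a paralog of Hoxd4 that did not pass the test. Each is the 250 bases before the RefSeq start site on the gene's own strand (GRCm38.p6), 5′ to 3′, and capitals mark the letters of the searched motifs on either strand. GENCODE has no exon in any of these windows. All but the Hoxb4 window are intronic in a longer transcript: that of Hoxa5 in Hoxa3, Gm28308 and Hoxaas3, that of Hoxd4 in Hoxd3 and Hoxd4, and that of Hoxd8 in Hoxd3os1.
Hoxa5, chr6:52204588-52204837, minus strand: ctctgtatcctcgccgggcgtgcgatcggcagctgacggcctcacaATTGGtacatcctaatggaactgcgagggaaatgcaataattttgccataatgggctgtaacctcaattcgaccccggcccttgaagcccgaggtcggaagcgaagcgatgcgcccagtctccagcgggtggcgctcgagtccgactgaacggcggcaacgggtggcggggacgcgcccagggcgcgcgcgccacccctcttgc
Hoxd4, chr2:74721728-74721977, plus strand: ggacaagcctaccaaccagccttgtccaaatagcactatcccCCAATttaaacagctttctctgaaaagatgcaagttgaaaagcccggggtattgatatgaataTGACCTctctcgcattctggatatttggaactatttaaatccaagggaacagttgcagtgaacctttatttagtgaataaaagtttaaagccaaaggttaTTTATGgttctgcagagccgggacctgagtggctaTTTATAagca
Hoxd8, chr2:74704365-74704614, plus strand: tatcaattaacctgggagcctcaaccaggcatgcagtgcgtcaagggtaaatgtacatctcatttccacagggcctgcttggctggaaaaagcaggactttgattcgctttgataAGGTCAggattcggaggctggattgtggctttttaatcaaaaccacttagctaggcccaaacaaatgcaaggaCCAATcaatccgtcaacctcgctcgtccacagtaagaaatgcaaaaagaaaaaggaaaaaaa
Hoxb4, chr11:96318017-96318266, plus strand: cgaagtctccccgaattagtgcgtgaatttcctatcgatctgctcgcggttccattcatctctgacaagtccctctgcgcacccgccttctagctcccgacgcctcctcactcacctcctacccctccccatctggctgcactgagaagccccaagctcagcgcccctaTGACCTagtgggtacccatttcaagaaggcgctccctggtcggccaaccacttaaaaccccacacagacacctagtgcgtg
These windows differed in base composition: that of Hoxa5 held 28 CpG dinucleotides and 63.6% G and C, that of Hoxb4 14 and 58.0%, that of Hoxd8 6 and 44.4%, and that of Hoxd4 3 and 40.4%.

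The RefSeq table held windows for 22 of the 39 members, and 5 motifs were searched in them on both strands. The CCAAT box (CCAAT, a general promoter element) was in 13 of 22 Hox windows and in 34.5% of all 27025 windows. The core letters bound by retinoic acid receptors (AGGTCA) was in 6, Hoxb4, Hoxd4 and Hoxd8 among them, and in 13.8% of all windows. A CDX core site (TTTATG) was in 5, with Hoxd4 among them, and in 11.1% of all. The TATA box (TATAAA), which on the other strand reads TTTATA and shares 5 letters with the CDX core, was in 3 against 13.0%, including Hoxd4 and Hoxd13. The octamer bound by OCT-4 and its relatives (ATGCAAAT) was in 0 Hox windows and in 1.61% of all. The median window held 12 CpG over the 22 members and 6 over all genes, and it held 8 over the 7 members with a window that were higher in EWS-OCT-4. A match describes letters only.

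In cluster A, Hoxa3, Hoxa5 and Hoxa7 were higher in EWS-OCT-4, and Hoxa4 among them did not pass. Hoxa3, which patterns the pharyngeal arches and the thymus, had 13, 17 and 16 counts in EGFP and 40, 34 and 25 in EWS-OCT-4. The mean was 1.07 ± 0.114 CPM in EGFP and 2.98 ± 0.808 CPM in EWS-OCT-4, with no overlap (log2 difference 1.47, SE 0.41, adjusted p = 0.00976). Hoxa3 shares 503 exon bases with the antisense RNA Hoxaas2 and 297 with Hoxaas3, whose reads cannot be told apart where strand was not used in counting. On the other strand, Hoxa3 also shares 437 with Gm29430 and 292 with 5730596B20Rik. A further 482 are shared with Gm28308, a protein-coding gene on the same strand, which strand cannot separate. Hoxa5 (chr6:52201754-52204587), needed for the lung and the cervical skeleton, had 5, 5 and 8 counts in EGFP and 76, 87 and 55 in EWS-OCT-4. Every EGFP library was below 1 CPM (mean 0.415 ± 0.0922) and every EWS-OCT-4 library well above it (6.55 ± 1.75 CPM). The log2 difference was 3.94 (SE 0.43, interval 2.99 to 4.89, adjusted p = 2.06e-05). It was between 3.77 and 4.36 under all 12 alternative fits.

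Hoxa7 (chr6:52214491-52221854), a gene of the trunk and thoracic vertebrae, was almost absent from EGFP. It had 0, 3 and 0 counts in EGFP and 41, 56 and 34 in EWS-OCT-4, so that all 3 EGFP counts came from library 2. The depth-scaled ratio of 131 to 3 counts was 56.0 with an exact 95% interval of 18.7 to 275, and the adjusted p was 0.000135. Without EGFP library 2, EGFP had no count and Hoxa7 was at least 18.8-fold higher in EWS-OCT-4 (floor of 3 counts per library). Hoxa7 shares 586 exon bases with the antisense gene Hoxaas3, which had few counts of its own. Hoxa4, between the called genes Hoxa3 and Hoxa5, had 15, 11 and 0 counts in EGFP and 22, 12 and 22 in EWS-OCT-4. Its libraries overlapped, and the log2 difference of 1.41 did not pass (interval -0.40 to 3.22, adjusted p = 0.148). It was 0.80 without EGFP library 3 and 2.09 without EGFP library 1, and passed in neither case.

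Cluster B was the cluster with the smallest difference in summed level. Its 10 genes summed to 9.63 ± 1.77 CPM in EGFP and 9.78 ± 1.32 CPM in EWS-OCT-4, and the libraries overlapped. Hoxb9, a gene of the thoracic skeleton, had 91, 90 and 97 counts in EGFP and 47, 68 and 48 in EWS-OCT-4. All EWS-OCT-4 libraries lay below the EGFP libraries (6.47 ± 0.275 and 4.88 ± 1.22 CPM), but the log2 difference of -0.41 did not pass (interval -1.03 to 0.22, adjusted p = 0.225). Hoxb4, known for expanding blood stem cells, had 54, 17 and 19 counts in EGFP and 23, 9 and 20 in EWS-OCT-4. EGFP library 1 stood above the other 5, and the sign of the difference rested on it: -0.47 (interval -1.78 to 0.85, adjusted p = 0.504) with it and 0.33 (adjusted p = 0.644) without it.

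Hoxb13 (chr11:96194316-96197447), a gene of the tail bud and the prostate, was the 1 called gene of cluster B. It had 6, 7 and 15 counts in EGFP and 17, 35 and 25 in EWS-OCT-4. The mean was 0.638 ± 0.293 CPM in EGFP and 2.30 ± 0.850 CPM in EWS-OCT-4 (log2 difference 1.82, SE 0.52, interval 0.67 to 2.97, adjusted p = 0.0101). Without EWS-OCT-4 library 2 the difference was 1.50 and no longer passed (adjusted p = 0.0642).

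In cluster C the called genes were those at its ends, Hoxc13 at the 5′ end and Hoxc4 at the 3′ end, and the 3 tested genes between them did not pass. Hoxc13 (chr15:102921103-102928814), which controls keratin genes of hair and nail, had 18, 11 and 18 counts in EGFP and 157, 207 and 130 in EWS-OCT-4, with means of 1.09 ± 0.293 and 14.8 ± 4.11 CPM. Its log2 difference was 3.75 (SE 0.34, interval 3.00 to 4.50, adjusted p = 6.05e-06), the smallest adjusted p of the 16 members, and it stayed between 3.53 and 4.01 under all 12 alternative fits. Hoxc4 (chr15:103018934-103036852), the most anterior gene of the cluster, had 6, 1 and 17 counts in EGFP and 54, 48 and 32 in EWS-OCT-4. The lines did not overlap (0.541 ± 0.524 and 4.03 ± 1.20 CPM), and EGFP library 3 was the highest of its line. The log2 difference was 2.85 (SE 0.66, interval 1.38 to 4.33, adjusted p = 0.0033), and 3.93 without EGFP library 3.

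Hoxc6 had 7, 23 and 30 counts in EGFP and 22, 27 and 23 in EWS-OCT-4 (log2 difference 0.64, interval -0.48 to 1.77, adjusted p = 0.281). Hoxc9, which specifies thoracic motor neurons, had 21, 43 and 44 counts in EGFP and 24, 28 and 20 in EWS-OCT-4 (-0.21, interval -1.13 to 0.72, adjusted p = 0.676). The libraries of both genes overlapped between the lines, and EGFP library 1 was the lowest of its line for each. Hoxc10, a gene of the lumbar region and the hindlimb, had 3, 2 and 15 counts in EGFP and 16, 5 and 16 in EWS-OCT-4. Its difference of 1.25 (interval -0.44 to 2.94) missed the threshold at an adjusted p of 0.169, and without EGFP library 3 it was 2.52 and passed (0.0257). Hoxc10 shares 166 exon bases with a long transcript of Hoxc5 on the same strand.

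Cluster D was nearly without counts in EGFP and had the steepest difference. Its 9 genes had 5, 26 and 13 counts in EGFP and 254, 191 and 176 in EWS-OCT-4, or 1.01 ± 0.740 and 18.6 ± 4.41 CPM. The 3 tested genes reached the limit of the low-count filter in 0 EGFP libraries and so entered the test only through EWS-OCT-4. The same held for Hoxa5 and Hoxa7 of cluster A. Hoxd4 (chr2:74711929-74729160), a retinoic acid-responsive gene of the hindbrain and neck, had 0, 11 and 1 counts in EGFP and 179, 110 and 120 in EWS-OCT-4. All EWS-OCT-4 libraries were above all EGFP libraries (0.279 ± 0.428 and 12.2 ± 3.69 CPM), and 11 of the 12 EGFP counts came from library 2. The log2 difference was 5.41 (SE 0.70, interval 3.84 to 6.97, adjusted p = 7.54e-05). Without EGFP library 2 a single EGFP count remained and the depth-scaled ratio was 351 with an exact 95% interval of 62.6 to 13882. Hoxd4 shares 1154 exon bases with Gm28230, a protein-coding gene on the same strand, 388 with Hoxd3, which had 5 counts in all, and 347 with Hoxd3os1 on the other strand.

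Hoxd8 (chr2:74704615-74707933), a gene of the trunk, had 2, 6 and 0 counts in EGFP and 52, 61 and 40 in EWS-OCT-4. Its means were 0.190 ± 0.213 and 4.60 ± 1.15 CPM with no overlap (log2 difference 4.55, SE 0.70, interval 2.98 to 6.11, adjusted p = 0.000247). Without EGFP library 2 the ratio was 65.6 (exact interval 17.8 to 546) over 2 EGFP counts. Hoxd13 (chr2:74668310-74671599), which shapes the digits, had 1, 7 and 0 counts in EGFP and 14, 9 and 11 in EWS-OCT-4. The lines did not overlap (0.189 ± 0.265 and 1.02 ± 0.243 CPM), and the log2 difference was 2.38 (SE 0.87, interval 0.45 to 4.32, adjusted p = 0.0326). This call was lost without any 1 of EGFP libraries 1 and 3 and the EWS-OCT-4 libraries, at adjusted p between 0.0642 and 0.114, and without the filter on low counts (2.36, adjusted p = 0.0631). Without EGFP library 2 a single EGFP count was left, and the ratio was 29.1 (exact interval 4.89 to 1185).

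**Figure D2:**
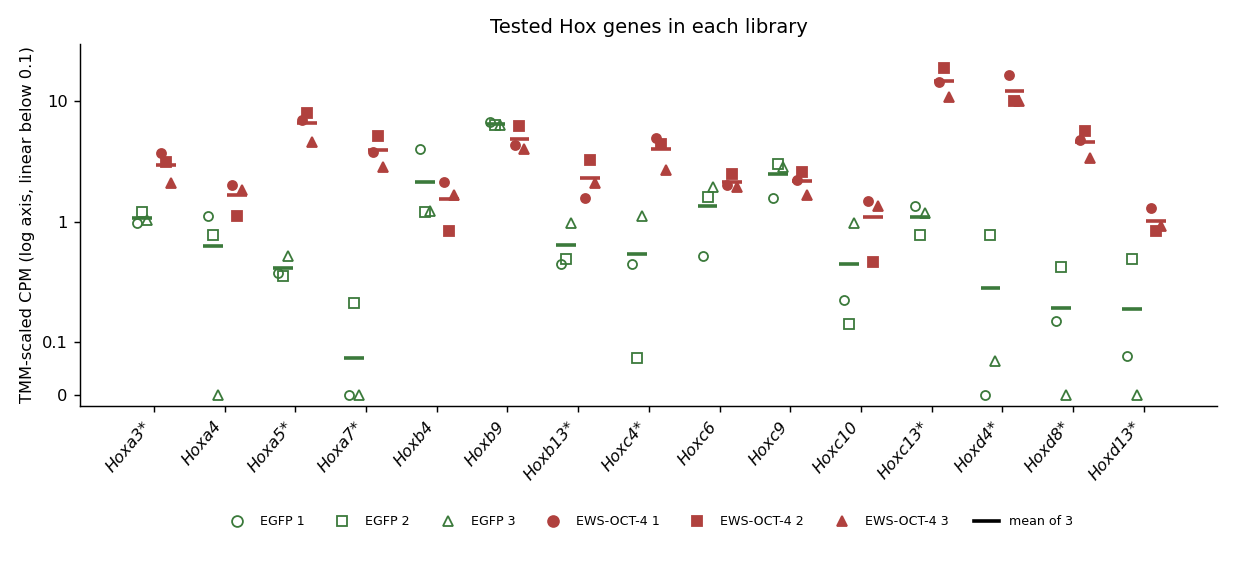
TMM-scaled CPM of 15 tested Hox genes in each library (log axis, linear below 0.1 CPM); symbols give the library number, bars the mean of 3, and an asterisk an adjusted p under 0.05. For Hoxa7, Hoxd4, Hoxd8 and Hoxd13 most of the EGFP counts lie in EGFP library 2, and EWS-OCT-4 libraries of the called genes lie apart from those of EGFP.

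**Figure D3:**
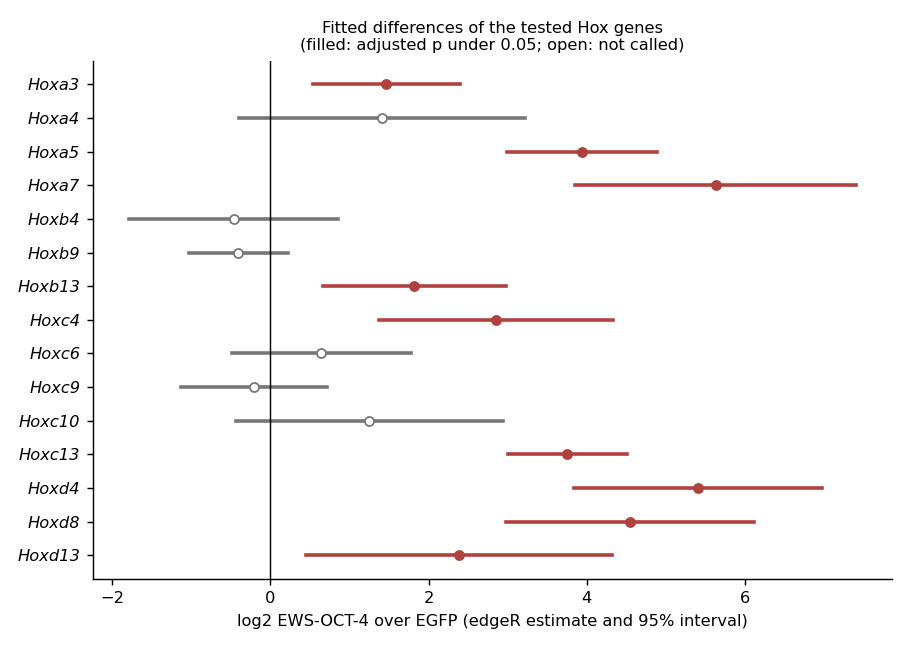
Fitted log2 difference, EWS-OCT-4 over EGFP, of 15 tested Hox genes with its 95% interval from edgeR; filled points passed an adjusted p of 0.05. Intervals are widest for Hoxd13 and Hoxa4, which had few counts, and those of Hoxa5, Hoxa7, Hoxc13, Hoxd4 and Hoxd8 lie wholly above 2.9.

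Set side by side, the summed cluster levels differed by 1.62-fold in cluster A (14.9 ± 3.35 CPM in EGFP and 24.1 ± 5.66 CPM in EWS-OCT-4), 1.02-fold in cluster B, 3.65-fold in cluster C (6.80 ± 2.30 and 24.8 ± 4.97 CPM) and 18.4-fold in cluster D. The libraries of the lines did not overlap for A, C and D and overlapped for B. Single genes made up most of the EWS-OCT-4 sums of cluster C (Hoxc13, 14.8 CPM) and cluster D (Hoxd4, 12.2 CPM). With each library left out in turn, chosen after seeing the data, the ratio ran from 1.44 to 1.84 for cluster A, from 0.943 to 1.13 for B and from 3.21 to 4.50 for C. For cluster D it ran from 13.9 (without EGFP library 1) to 30.6 (without EGFP library 2, which held 26 of the EGFP counts). Over libraries 1 and 2 alone, the ratios of clusters A, B, C and D were 1.63, 1.04, 4.97 and 18.7. Between the libraries numbered 3, with 1 library per line, they were 1.60, 0.954, 2.09 and 17.5.

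**Figure D4:**
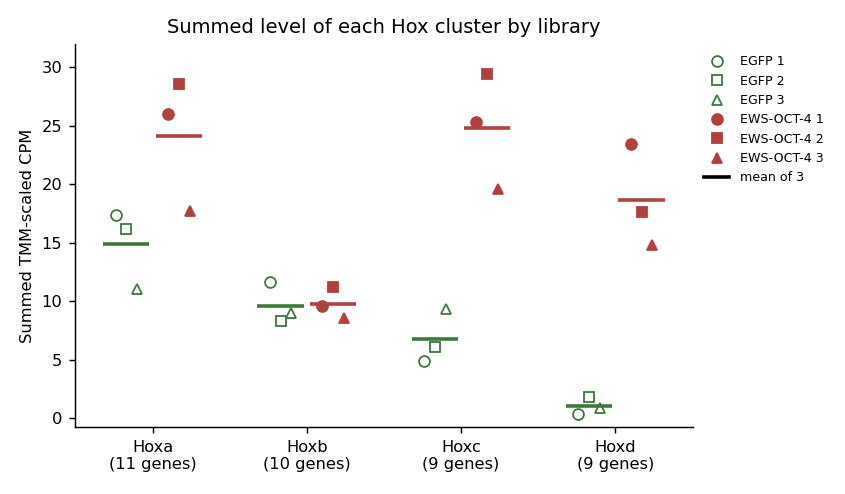
Summed TMM-scaled CPM of all genes of each Hox cluster, by library; symbols give the library number and bars the mean of 3. The EWS-OCT-4 libraries lie above the EGFP libraries in clusters A, C and D and among them in cluster B, and EGFP stays below 2 CPM in cluster D.

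By paralog number, Hoxb13, Hoxc13 and Hoxd13 of group 13 were higher, and Hoxa13 had no count. The group summed to 1.92 ± 0.202 CPM in EGFP and 18.2 ± 4.68 CPM in EWS-OCT-4, of which Hoxc13 alone made 1.09 and 14.8 CPM. Paralog group 4, of the cervical level, had all 4 genes tested. Hoxc4 and Hoxd4 were higher and Hoxa4 and Hoxb4 did not pass, and the group summed to 3.60 ± 1.74 and 19.5 ± 5.33 CPM. Of these sums, Hoxd4 alone made 0.279 and 12.2 CPM. Paralog group 9 summed to 9.26 ± 0.796 and 8.23 ± 2.07 CPM with overlapping libraries (ratio 0.889, and 1.01 without EWS-OCT-4 library 3), and neither tested gene (Hoxb9, Hoxc9) passed. Of the members numbered 4 to 8, 8 of 15 were tested and 5 were higher, and of those numbered 9 to 13, 6 of 16 were tested and 3 were higher. The called shares were thus 62.5% and 50%, against 67.4% of all tested genes in either direction and 33.3% higher. Of all 16 tested members, 10 reached the filter's limit in all 3 EWS-OCT-4 libraries but not in all 3 EGFP libraries.

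**Figure D5:**
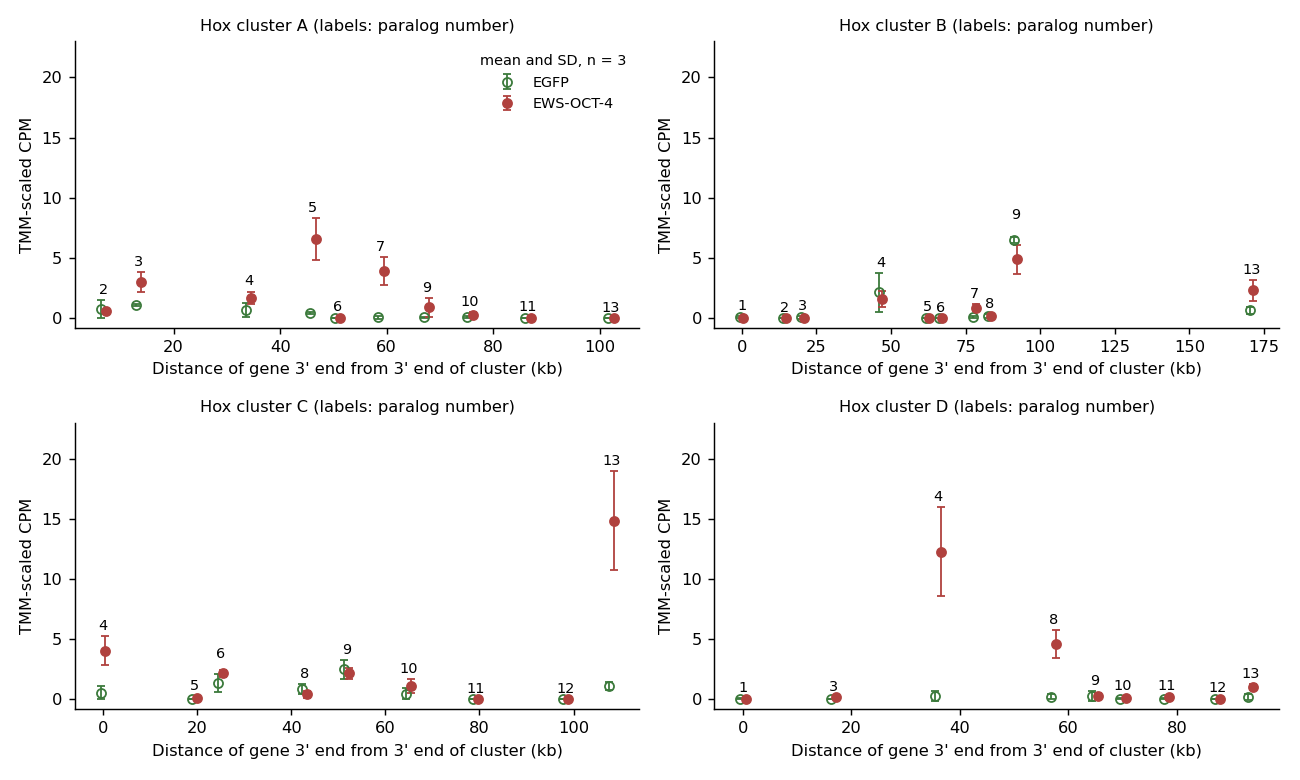
Mean TMM-scaled CPM with SD (n = 3 libraries) of 38 Hox genes against the distance of its 3′ end from the 3′ end of the cluster in kb, one panel per cluster, numbered by paralog. Between the lines, paralog 13 of cluster C goes from 1.09 to 14.8 CPM, and in cluster D paralog 4 goes from 0.279 to 12.2 CPM and paralog 8 from 0.190 to 4.60 CPM.

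The genes next to the steepest rises had few counts. Between Hoxc13 and Hoxc10, Hoxc11 and Hoxc12 had no count in any library. Beside Hoxd4 and Hoxd8, Hoxd3 had 0 counts in EGFP and 2, 1 and 2 in EWS-OCT-4, and Hoxd9 had 1, 0 and 11 in EGFP and 2, 6 and 2 in EWS-OCT-4. Hoxa6, between Hoxa5 and Hoxa7, had 0 counts in EGFP and 1 in EWS-OCT-4 library 3. Whether transcripts of neighbouring genes that overlap were counted for 1 of them alone is not given in the sources used here. Levels of single genes are compared between libraries and not with each other, since how far counts depend on transcript length was not tested.

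Some members that were too rare for the test still had more counts in 1 line. Hoxa9, a gene of blood stem cells and leukaemia, had 0, 0 and 2 counts in EGFP and 19, 8 and 2 in EWS-OCT-4, a ratio of 18.6 (exact 95% interval 4.70 to 161). The ratio was 9.47 without EWS-OCT-4 library 1, and without EGFP library 3, which held both EGFP counts, Hoxa9 was at least 4.08-fold higher (floor of 3 counts per library). Hoxb7 had 1, 0 and 3 counts in EGFP and 13, 7 and 9 in EWS-OCT-4, with no overlap. When every symbol with a count was tested, both passed (log2 difference 4.00, adjusted p = 0.0185 for Hoxa9 and 3.09, 0.0267 for Hoxb7), and Hoxd13 no longer did. Hoxc8 had more counts in EGFP, 11, 7 and 20 against 2, 3 and 9, but its libraries overlapped and it did not pass in that fit (-1.10, adjusted p = 0.286). Hoxa2 had 20, 10 and 0 counts in EGFP and 5, 7 and 7 in EWS-OCT-4. EGFP library 1 was high and library 3 at 0, so the Hoxa2 values overlapped.

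The remaining members gave only traces. Summed over 3 libraries, EGFP and EWS-OCT-4 had 3 and 9 counts of Hoxa10, 6 and 4 of Hoxb8, 2 and 6 of Hoxd11, 1 and 3 of Hoxd10, and 3 and 1 of Hoxb1. Hoxb3 had 3 counts and Hoxd1 had 1, all in EGFP. Hoxc5 had 4 counts, and Hoxa11, Hoxb5 and Hoxd12 had 1 each, all in EWS-OCT-4. No count was found for Hoxa13, Hoxb2, Hoxb6, Hoxc11 and Hoxc12. At this depth, 0 counts allow up to 0.195 to 0.277 CPM in a library, a limit that covers counting error only.

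Of the noncoding genes of the clusters, 2 had enough counts to be tested. Hotairm1, an antisense RNA of cluster A, had 91, 113 and 102 counts in EGFP and 62, 63 and 43 in EWS-OCT-4. It was below EGFP in every EWS-OCT-4 library, and its log2 difference of -0.50 (SE 0.28) did not pass (adjusted p = 0.146). Hoxaas2, antisense to Hoxa3, had 4, 14 and 1 counts in EGFP and 27, 25 and 20 in EWS-OCT-4 and was higher (2.25, SE 0.70, adjusted p = 0.016). It no longer passed without EGFP library 1 (2.03, 0.0627) or without EWS-OCT-4 library 1 (2.14, 0.0503), and without EGFP library 2 it was 3.53. Because Hoxaas2 and Hoxa3 overlap, these are not separate measurements unless strand was used. Hotair, Hottip and Haglr had at most 2 counts each over the 6 libraries.

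Of the 10 genes beside the clusters that were in the files, 8 were tested, 2 were higher and 1 was lower, a called share of 37.5% against 67.4% of all tested genes. Ttll6, a tubulin-modifying enzyme beside Hoxb13, had 5, 4 and 14 counts in EGFP and 44, 40 and 39 in EWS-OCT-4 (log2 difference 2.78, SE 0.50, adjusted p = 0.0007), and 3.45 without EGFP library 3. Skap2, a signalling adaptor beyond the 3′ end of cluster A, was also higher (49.0 ± 5.60 and 85.8 ± 2.69 CPM, 0.81, adjusted p = 0.000416). Hibadh, a metabolic enzyme beyond the 5′ end of cluster A, was lower (128 ± 27.3 and 63.0 ± 28.9 CPM, -1.02, adjusted p = 0.0172), and lost its call without EGFP library 2 (adjusted p = 0.0646) or without the filter (0.0799). Evx1, the homeobox gene at the 5′ end of cluster A, had 4 counts, all in EWS-OCT-4 library 1, and Evx2 beside Hoxd13 had none. Around cluster D, Mtx2 (0.02, adjusted p = 0.945) and Lnp (-0.29, 0.131) did not pass, but over the libraries numbered 1 and 2 alone Lnp did (-0.39, 0.0228).

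HOX proteins bind DNA together with PBX, MEIS and PKNOX (PREP) cofactors. All 9 cofactor genes were tested, and 4 were higher, 3 lower and 2 not called. The called share was 77.8%, against 67.4% of all tested genes. Meis2 had 72, 56 and 58 counts in EGFP and 703, 597 and 823 in EWS-OCT-4, the largest change of the list (log2 difference 3.86, SE 0.20, adjusted p = 1.5e-07). Also higher were Pbx3 (17.4 ± 2.77 and 39.4 ± 6.78 CPM, 1.18, adjusted p = 0.000329) and Pbx4 (2.14 ± 0.875 and 4.49 ± 1.49 CPM, 1.07, 0.0417). The lower ones were Meis3 (7.61 ± 1.40 and 2.84 ± 1.06 CPM, -1.42, 0.00381), Pknox1 (67.5 ± 4.20 and 31.7 ± 1.68 CPM, -1.09, 5.06e-05) and Pbx2 (115 ± 4.85 and 88.3 ± 7.60 CPM, -0.38, 0.0189). Libraries of the lines overlapped for none of these 6 genes, which were all called, and did not overlap for 72.7% of all tested genes. Meis1, the usual MEIS partner in leukaemia, did not pass (0.31, adjusted p = 0.499), nor did Pknox2 (1.59, 0.0581). The Pbx4 call was lost without EGFP library 2, EGFP library 3 or EWS-OCT-4 library 2 (adjusted p 0.138, 0.097 and 0.186), and that of Pbx2 without EGFP library 1 or EWS-OCT-4 library 1 (0.0759 and 0.0546).

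Among the CDX and retinoic acid genes, which act upstream of Hox genes in the embryo, 16 of 21 were tested, 6 were higher and 9 lower, a called share of 93.8% against 67.4% of all tested genes. Cdx2, an activator of central and posterior Hox genes and a trophoblast factor, had 303, 343 and 576 counts in EGFP and 3, 2 and 4 in EWS-OCT-4 (log2 difference -6.66, SE 0.37, adjusted p = 2.53e-07). Cdx1, its relative, had 9, 10 and 52 counts in EGFP and 54, 66 and 59 in EWS-OCT-4 and was higher (1.73, SE 0.57, adjusted p = 0.0217), at 2.94 without EGFP library 3. This call was lost without EGFP library 1, EGFP library 2 or EWS-OCT-4 library 2 (adjusted p 0.0722, 0.0732 and 0.059). Crabp1, a cytoplasmic retinoic acid binding protein, had 17, 9 and 8 counts in EGFP and 629, 664 and 820 in EWS-OCT-4 (6.29, SE 0.27, adjusted p = 6.23e-08). Stra6, the retinol uptake receptor, had 254, 253 and 108 counts in EGFP and 5, 0 and 2 in EWS-OCT-4 (-6.06, SE 0.66, adjusted p = 2.36e-05), and was at -7.22 without EWS-OCT-4 library 1. Rxrg, a retinoid X receptor, had no count in EGFP and 34, 24 and 13 in EWS-OCT-4, at least 10.2-fold higher with a floor of 3 counts per library.

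A further list of 12 genes held those of the MLL complexes, which keep Hox genes active, with Psip1, Dot1l and the H3K27 demethylases. Of these 12, 4 were higher, 4 lower and 4 not called, a called share (66.7%) like that of all tested genes (67.4%). The largest changes were Kdm6a, an H3K27 demethylase (44.4 ± 2.82 and 10.1 ± 1.81 CPM, log2 difference -2.14, adjusted p = 3.48e-06), Dpy30, an MLL complex subunit (22.7 ± 1.25 and 71.2 ± 24.6 CPM, 1.65, 0.000181), Psip1, which tethers MLL (130 ± 18.7 and 355 ± 23.4 CPM, 1.45, 7.01e-06), and Dot1l, the H3K79 methyltransferase (176 ± 10.99 and 80.3 ± 14.8 CPM, -1.14, 9.8e-05). Of 17 Polycomb genes, which keep Hox genes silent, 7 were higher, 7 lower and 3 not called (82.4% called). Phc1 (16.4 ± 2.50 and 163 ± 4.69 CPM, 3.31, adjusted p = 7.61e-08), Pcgf2 (10.7 ± 0.983 and 82.8 ± 26.4 CPM, 2.95, 2.32e-06) and the chromobox gene Cbx6 (38.1 ± 5.14 and 185 ± 42.1 CPM, 2.28, 2.89e-06) were higher, and Cbx8 was lower (10.9 ± 4.08 and 0.671 ± 0.517 CPM, -4.03, 9.98e-05), at -4.74 without EWS-OCT-4 library 2. Over the 59 genes of these 4 lists, 54 were tested, 81.5% of them were called (67.4% of all tested genes) and the median log2 difference was 0.04.

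Markers of cell types other than stem cells and trophoblast were read beside these values. Called shares of tested markers were 50% for primitive streak and posterior mesoderm, 57.1% for fibroblast and feeder, 75% for neural and 100% for primitive endoderm. Of all tested genes, 67.4% were called. Of 9 primitive streak and posterior mesoderm markers, 2 were tested and 1 was called, Eomes, which was lower. The list summed to 56.0 to 86.5 CPM in EGFP and 10.4 to 14.8 CPM in EWS-OCT-4. Eomes made up most of this sum, with means of 66.5 CPM in EGFP and 9.88 CPM in EWS-OCT-4. Mixl1, the other tested marker, was at 1.31 and 1.77 CPM and did not pass. T, the defining gene, had 0 counts in EGFP and 2 in EWS-OCT-4. Of 11 fibroblast and feeder markers, 7 were tested, 2 were higher (Thy1 and Pdgfrb) and 2 lower (Postn and Pdgfra), and the list summed to 16.3 to 21.4 and 24.9 to 32.9 CPM. Thy1 alone went from 0.636 to 17.9 CPM, and the other 10 markers summed to 15.6 to 20.8 CPM in EGFP and 6.30 to 16.7 CPM in EWS-OCT-4. Of 8 neural markers, 4 were tested, 2 were higher (Sox1 and Pax6) and 1 lower (Nes). The neural list summed to 25.8 to 41.9 CPM in EGFP and 75.7 to 103 CPM in EWS-OCT-4, and Olig2 and Neurog2 had at most 2 counts in any library. Sox1 alone went from 0.022 to 49.7 CPM, and the other 7 neural markers summed to 25.8 to 41.9 and 36.9 to 39.3 CPM. Of 6 primitive endoderm markers, 3 were tested, 1 was higher (Gata4) and 2 lower (Gata6 and Dab2), with sums of 101 to 122 and 5.54 to 6.55 CPM. Dab2 (79.5 and 1.53 CPM) and Gata6 (31.2 and 1.07 CPM) made up most of the EGFP sum, and Gata4 went from 0.143 to 2.08 CPM. Foxa2, Sox17 and Sox7, not tested, were at 1.02, 0.408 and 0.0918 CPM in EGFP. In EWS-OCT-4 they were at 0.120, 0.182 and 0.929 CPM. Sums that rest on 1 or 2 genes, as here and for Eomes, do not show which cell type was present. The part of any of these cell types in the Hox differences was not tested.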

How the data were processed

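Each library's deposited file gave raw counts by gene symbol. Libraries were made with a Lexogen QuantSeq kit from 500 ng of Trizol-extracted RNA, per the labels' protocols. The submitters' processing notes name Bowtie2, edgeR and mm10 without versions or roles. How reads were counted (tool, annotation, strand) is not given in the sources used here. The labels do not say that the 3 libraries of a line were separate cultures, so p-values measure only how these samples spread, and that spread may be technical. Symbols on several lines were summed (35 symbols, 0 of them Hox).

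Counts were scaled by TMM (factors 0.971 to 1.03), passed through filterByExpr (at least 10 counts, 15 in total) and tested in edgeR 4.0.16 (R 4.3.3) by a robust quasi-likelihood F test, 2-sided, with Benjamini-Hochberg adjustment over all 13467 tested symbols at 0.05. SE is the log2 difference divided by the square root of F. Intervals of log2 differences come from the same fit and include the spread between libraries. Ratios of few counts have exact 95% intervals, and these exact intervals and the floors cover counting error only. On simulated data for 13287 genes the test recovered 64.6% of 2-fold and 99.0% of 4-fold changes with 4.71% false calls. The simulation changed few genes, unlike the data, and gave every gene the same dispersion. Its changed genes were drawn from nearly all levels, so it does not give the recovery for rare genes such as the Hox members. Alternatives were leaving out each library, libraries numbered 1 and 2 only, a replicate block, DESeq2 size factors, no filter, DESeq2 1.42.0 and limma-voom (limma 3.58.1). Sums and the Hoxa9 ratio without single libraries, and marker sums without single genes, were added after seeing the data. Genes and overlaps come from GENCODE M21 and upstream windows from RefSeq (GRCm38.p6). Members and lists were chosen with earlier results of these data known. The rule named all Hox members, all called cofactors, and up to 4 called genes with the largest change in each regulator list. Cdx1, and the named genes of the marker, noncoding and neighbour lists, were chosen after their values were seen. A few of these genes are left out and not reported here.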

Additional observations from a re-analysis of the deposited data

How the results depend on the processing

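Of 190 alternative values of the 16 tested Hox genes, 176 kept their direction and side of the threshold, 11 lost the call, 1 gained it and 2 changed sign, neither of them called. With 1 library left out, Hoxb4 ran from -0.77 (without EGFP library 2) to 0.33 (without EGFP library 1), and Hoxc9 was 0.082 over libraries numbered 1 and 2 only, where Hoxc10 and Hoxd13 could not be tested. The cause was not tested. Members called higher numbered 7 to 9 when 1 library was left out and 8 to 10 under the other alternatives. Members called lower numbered 0 to 1 when 1 library was left out (0 without EGFP library 1, EGFP library 2, EWS-OCT-4 library 1 or EWS-OCT-4 library 3) and 1 otherwise. Mtx2, a neighbour near no difference, changed sign without EGFP library 1 (-0.014), EGFP library 3 (-0.0085), EWS-OCT-4 library 1 (-0.090) or EWS-OCT-4 library 2 (-0.083), with the replicate block (-0.011) and in limma-voom (-0.020), and was 0.21 without EWS-OCT-4 library 3. The median log2 difference of all genes ran from -0.032 (no filter) to 0.017.

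Replicate numbers were not taken to pair the libraries, since the correlations of deviations between same-numbered libraries were 0.0402, 0.052 and 0.152, and libraries 1 and 2 did not correlate best with their own number. The libraries numbered 3 did, and their correlations with libraries 1 and 2 of the other line ran from -0.102 to -0.0903. Whether the libraries numbered 3 share a factor was not tested. The fit with a replicate block called 9 members higher and 1 lower, as without it, and 8968 genes in all. It changed no Hox call, and Pbx4 lost its call (adjusted p = 0.0699). Few counts limit most members: 23 of 39 were not tested.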
